A study of Mus musculus with 2 samples.

Results

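The genes described here are the nuclear-encoded subunits of the mitochondrial respiratory chain and of ATP synthase. They were chosen by symbol alone: all genes beginning Ndufa, Ndufb, Ndufc, Ndufs, Ndufv, Uqcr, Atp5 or Cox4 to Cox8, with Sdha to Sdhd and Cyc1 and without pseudogenes and Ndufaf assembly factors. This took 86 of the 32285 genes in the count tables. Of these, 36 belong to complex I, 4 to complex II, 9 to complex III, 20 to complex IV and 17 to complex V. Ndufa4 and Ndufa4l2 were placed with complex IV, where their products are now assigned.

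RNA of single nuclei was sequenced from the tibialis anterior, a lower leg muscle, of male mice that were 16 to 20 weeks old and had chronic kidney disease. Their femoral artery had been ligated 5 days earlier, which makes the leg ischaemic. One library was labelled AHRfl/fl and the other AHRmKO, a deletion of the aryl hydrocarbon receptor in muscle. Both labels name the same cross, AHRtm3.1Bra/J, a floxed Ahr allele, with Tg(ACTA1-cre/Esr1*)2Kesr/J, a Cre recombinase that needs an oestrogen receptor ligand and is driven by a skeletal actin promoter. Kidney disease and ligation were thus shared by both groups, there was no healthy or sham group, and the labels do not give the number of animals per library or how the AHRfl/fl mice differed in Cre or ligand. With 1 library per group there is no replicate check and no test between genotypes. Every interval below covers counting error only, and a difference between the libraries cannot be told apart from a difference between genotypes.

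The respiratory chain passes electrons from NADH (complex I) and succinate (complex II) through complex III and cytochrome c to oxygen at complex IV, and complex V uses the resulting proton gradient to make ATP. Complexes I, III, IV and V combine subunits made from mitochondrial DNA with subunits made from nuclear genes, whereas complex II is wholly nuclear-encoded. Skeletal muscle is rich in all of them and uses muscle isoforms of several complex IV subunits. Nuclear genes for these subunits are known targets of the transcription factors NRF1, NRF2 (GABP, of the ETS family), the oestrogen-related receptors (ERR) and YY1, and their mRNAs are translated outside the nucleus.

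Since the members share such regulators, the promoters, from 250 bases before to 50 after the start site, were searched on both strands for 4 motifs. RefSeq promoters (GRCm38.p6) were matched by symbol for 69 of the 86 members. The NRF1 motif, the 10 bases in capitals in the first 4 lines printed here, stood in 5 of them (7.25%) and in 1.07% of the promoters of 27025 genes. The ETS motif ACCGGAAG stood in 7 (10.1%, against 2.60% of all), the ERR motif CAAGGTCA in 4 (5.80%, against 1.76%) and the YY1 motif AAGATGGCG in 7 (10.1%, against 1.64%). None of these letter strings contains another, and a match is a description of the sequence only. Members with each motif are shown 5′ to 3′ on the strand of the gene, with the motif or its reverse complement in capitals. Atp5k, Cox6a1, Atp5g2 and Ndufa11 share the NRF1 motif, Sdhd holds the ETS motif, Atp5g3 the ERR motif and Atp5j the YY1 motif.
Atp5k, chr5:108434415-108434474, minus strand: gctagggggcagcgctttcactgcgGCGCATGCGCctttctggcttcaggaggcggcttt
Cox6a1, chr5:115349086-115349145, minus strand: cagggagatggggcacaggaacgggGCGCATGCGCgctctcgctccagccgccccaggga
Atp5g2, chr15:102671055-102671114, minus strand: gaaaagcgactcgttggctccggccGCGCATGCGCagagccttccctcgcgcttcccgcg
Ndufa11, chr17:56717677-56717736, plus strand: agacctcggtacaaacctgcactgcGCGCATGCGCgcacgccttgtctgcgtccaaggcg
Sdhd, chr9:50603863-50603920, minus strand: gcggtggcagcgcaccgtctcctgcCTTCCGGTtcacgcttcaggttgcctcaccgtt
Atp5g3, chr2:73911346-73911403, minus strand: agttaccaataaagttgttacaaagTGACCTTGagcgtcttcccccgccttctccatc
Atp5j, chr16:84835031-84835089, minus strand: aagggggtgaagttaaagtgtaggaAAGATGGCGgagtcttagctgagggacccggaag

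The counts are unique molecular identifiers (UMIs), 1 per captured RNA molecule. The AHRfl/fl library held 151788328 and the AHRmKO library 113737134. Barcodes of at least 2000 UMIs were taken as nuclei, 17603 and 8690 after removal of doublets, with medians of 3653 and 3548 UMIs and with 37 barcodes present in both selections. Barcodes of 200 to under 500 UMIs, called low barcodes here, were taken to hold mostly RNA from outside nuclei, and numbered 79956 and 138289. The libraries stood apart in these low barcodes: mitochondrial-encoded genes took 3.36% of UMIs in AHRfl/fl and 16.8% in AHRmKO, and Gm42418, a transcript that overlaps ribosomal RNA, took 1.55% and 11.9%. Ahr in myofibre-like nuclei stood at 30.8 CPM (UMIs per 1000000 UMIs of the group) in AHRfl/fl and 29.5 in AHRmKO, a log2 ratio of -0.06 (95% interval -0.29 to 0.17). The library reads mostly the 3′ end of a transcript and the labels do not place the floxed part, so this value does not check the genotype. Of its 344 and 297 Ahr UMIs, 335 and 285 came from clusters with 3 or more raised markers of immature myonuclei (36.1 and 35.6 CPM). Clusters with under 3 such markers held only 9 and 12 (4.75 and 5.89 CPM).

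Classes were rebuilt from marker genes and carry the suffix "-like". The myofibre-like class held 1975 nuclei of AHRfl/fl and 2031 of AHRmKO, and its 12 markers, such as Ttn, Ckm and Myh4, summed to 35192 and 70955 CPM, against 3587 and 2100 CPM in macrophage-like nuclei. Different clusters made up this class in the 2 libraries: one gave 1531 of the AHRfl/fl nuclei and 2 of AHRmKO, while others gave 56 against 1433 and 1 against 532. The other classes were satellite-like (3301 and 1835), macrophage-like (7407 and 2617), fibroblast-like (1364 and 684), endothelial-like (290 and 207) and adipocyte-like (111 and 83). The macrophage-like and satellite-like classes also differed in their clusters. Of the macrophage-like nuclei, 5 clusters gave 2511, 1896, 1514, 555 and 257 in AHRfl/fl against 14, 18, 8, 25 and 23 in AHRmKO, and another gave 34 against 2047. Of the satellite-like nuclei, one cluster gave 1941 against 65 and another 18 against 653. The immature myonucleus-like class had only 26 nuclei in AHRmKO and was left out of the class comparisons.

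Summed over all members, respiratory chain RNA was lower in the AHRmKO library in every class. In myofibre-like nuclei the 86 members took 5692 CPM (95% interval 5648 to 5736) in AHRfl/fl and 2852 CPM (2819 to 2885) in AHRmKO, 2.00-fold less. The sums were 5440 and 2521 CPM in satellite-like nuclei, 5411 and 1759 in macrophage-like, 4444 and 1480 in fibroblast-like, 6784 and 1767 in endothelial-like and 4753 and 2622 in adipocyte-like nuclei. As folds of AHRfl/fl over AHRmKO, these sums differed by more in macrophage-like and endothelial-like nuclei than in myofibre-like nuclei. The low barcodes differed most, with 25186 CPM in AHRfl/fl and 3342 in AHRmKO, 7.54-fold less.

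**Figure D1:**
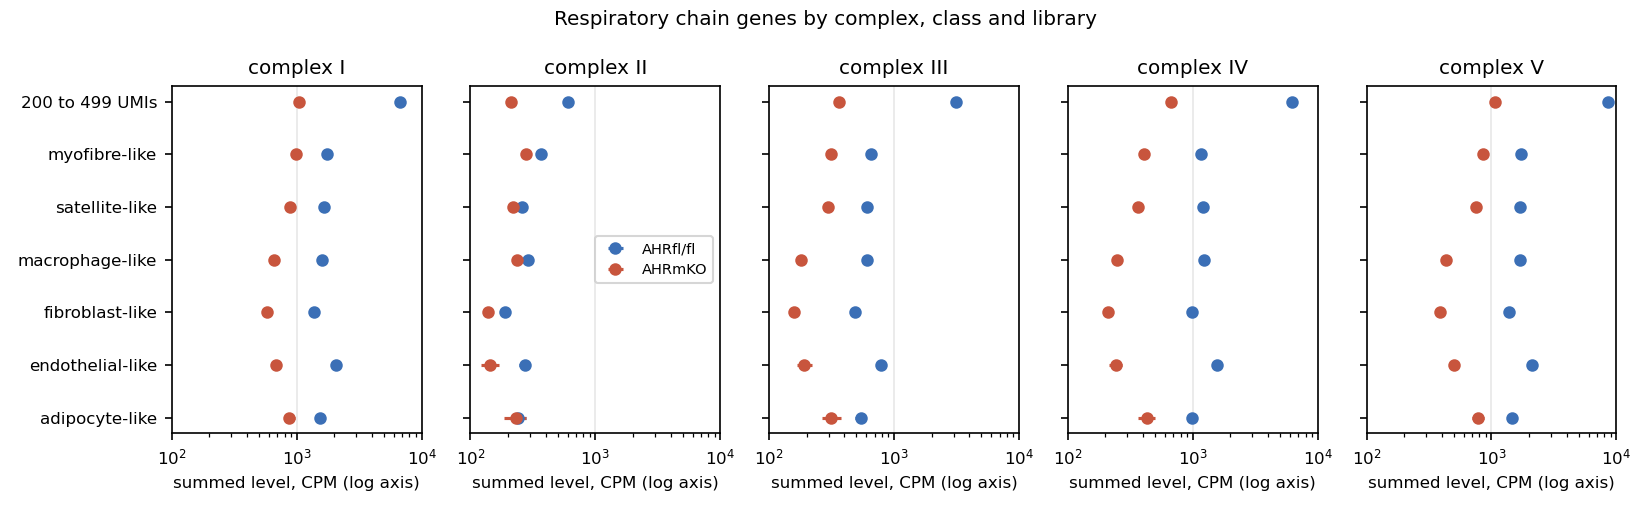
Summed level of the members of each complex, in CPM on a log axis, in low barcodes and 6 nuclear classes. Points are the 2 libraries and bars are 95% counting intervals, mostly narrower than the points. AHRmKO lies below AHRfl/fl throughout, by most in the low barcodes and by least for complex II, where the intervals of adipocyte-like nuclei overlap.

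Gene by gene the pattern was the same. A gene was compared where it had at least 10 UMIs over both libraries, and the log2 ratio of AHRmKO over AHRfl/fl was taken with 0.5 CPM added to both levels. The interval beside a ratio is that of the raw ratio with nothing added, so for genes with few UMIs it lies off-centre. In myofibre-like nuclei 49 of 81 members were 2-fold or more lower in AHRmKO, against 18.3% of all 17014 genes compared, and 0 were 2-fold higher, against 7.35%. Their median log2 ratio was -1.33, with -0.14 over all genes. The 5 members not compared there were Cox4i2, Cox6b2, Cox7b2, Cox8c and Ndufa4l2, minor isoforms with 8 UMIs or fewer.

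The other classes gave 52 of 83 members lower in satellite-like nuclei (17.6% of all genes, median of the members -1.38), 67 of 84 in macrophage-like (17.7%, -1.91) and 65 of 83 in fibroblast-like nuclei (18.2%, -1.78). Endothelial-like nuclei gave 71 of 81 (20.7%, -2.22) and adipocyte-like nuclei 41 of 78 (18.8%, -1.07). In the low barcodes 80 of 85 members were lower (22.6% of all genes, -2.92). No member was 2-fold higher in any of these 6 classes or in the low barcodes. The shares of all genes that were 2-fold higher came to 8.92% in the low barcodes, 10.7% for adipocyte-like nuclei, 6.41% for fibroblast-like, 5.49% for endothelial-like, 4.79% for satellite-like and 3.02% for macrophage-like ones. Within the 9 clusters with at least 50 nuclei from each library, the members' median lay between -2.42 and -1.07, so it was below 0 in all of them. The -2.42 came from an unnamed cluster of 328 and 1160 nuclei that is in no class, and the lowest median of a named cluster was -2.22.

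**Figure D2:**
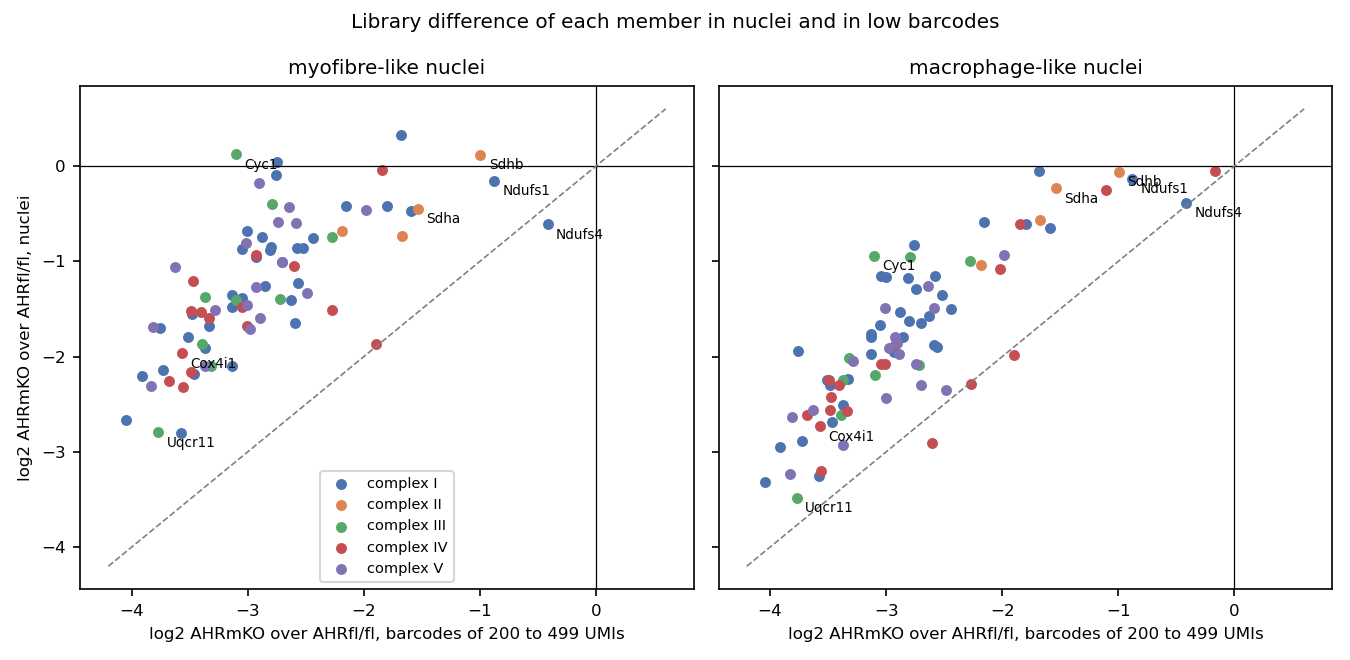
Log2 ratio of AHRmKO over AHRfl/fl for each member, in low barcodes on the horizontal axis and in myofibre-like (left) or macrophage-like (right) nuclei on the vertical axis. Colours are complexes and the dashed line marks equal ratios. Nearly all points lie left of 0 and above the dashed line, so the difference was larger in the low barcodes, with Ndufs4 below the line in myofibre-like nuclei.

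Complex I, the NADH dehydrogenase, summed to 1758 CPM in AHRfl/fl and 989 in AHRmKO in myofibre-like nuclei, and 19 of its 36 genes were 2-fold or more lower (median log2 ratio -1.12). Its members spread widely. Ndufs4, an accessory subunit of the electron-input arm and the complex I gene with most UMIs in AHRfl/fl, had 2239 UMIs there (200.6 CPM) and 1320 (131 CPM) in AHRmKO, a log2 ratio of -0.61 (-0.71 to -0.51). Ndufs1, an iron-sulphur subunit chosen after its values were seen, had 157 and 141 CPM, a log2 ratio of -0.15 (-0.25 to -0.05). Ndufs3, a core subunit of the matrix arm, was the highest by ratio, with 729 UMIs (65.3 CPM) and 826 (82.2 CPM) and a log2 ratio of 0.33 (0.19 to 0.48). Its ratio was -0.13 (-0.77 to 0.59) within the cluster of 56 and 1433 nuclei and 0.35 (-0.48 to 1.10) within that of 387 and 64. At the other end, Ndufa1, a small accessory subunit of the membrane arm, had 204 UMIs (18.3 CPM) in AHRfl/fl and 22 (2.19 CPM) in AHRmKO, a log2 ratio of -2.80 (-3.77 to -2.42). Other accessory subunits with low ratios, chosen after their values were seen, were Ndufa13 at -2.66 and Ndufc2 at -2.20.

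Complex II, succinate dehydrogenase, differed least. Its genes summed to 369 and 277 CPM in myofibre-like nuclei, with a median log2 ratio of -0.56, and none of the 4 was 2-fold lower. Sdha, the flavoprotein that oxidises succinate, had 177 CPM (1973 UMIs) in AHRfl/fl and 130 CPM (1303 UMIs) in AHRmKO, a log2 ratio of -0.45 (-0.55 to -0.35). Sdhb, the iron-sulphur subunit, had 64.5 and 70.1 CPM, a ratio of 0.12 whose interval (-0.03 to 0.27) holds 0. The membrane anchors were lower, with 99.5 and 59.7 CPM for Sdhc (-0.73) and 27.9 and 17.2 CPM for Sdhd (-0.68). In the myofibre-like clusters with fewest markers of immature myonuclei, where the nuclei of the 2 libraries came mostly from different clusters, Sdha stood at 112 and 158 CPM (0.50, 0.24 to 0.76) and Sdhc at 57.6 and 72.7 CPM (0.33, -0.03 to 0.71). In the 1 of these clusters with at least 50 nuclei of each library, Sdha stood at 111 and 84.3 CPM (-0.39, -1.14 to 0.27) and Sdhc at 57.3 and 21.1 CPM (-1.42, -3.10 to -0.18). In the low barcodes, by contrast, 3 of the 4 were 2-fold or more lower, and the sum fell from 606 to 210 CPM between the libraries.

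Complex III, which passes electrons from ubiquinol to cytochrome c, summed to 652 and 315 CPM in myofibre-like nuclei, and 6 of its 9 genes were lower (median -1.40). Over the class as a whole Cyc1, the haem-bearing cytochrome c1, stood apart with 623 UMIs (55.8 CPM) and 613 UMIs (61.0 CPM), a ratio of 0.13 (-0.04 to 0.29). Within the myofibre-like cluster of 56 and 1433 nuclei Cyc1 had 95.6 and 66.1 CPM (-0.53, -1.15 to 0.15). Within that of 387 and 64 nuclei it had 46.7 and 33.7 CPM (-0.46, -1.73 to 0.57), and both intervals hold 0. It was also lower in AHRmKO in macrophage-like nuclei, at 47.6 and 24.5 CPM (-0.94), and in the low barcodes, at 253 and 29.1 CPM (-3.10). Uqcrh, the hinge protein, which had most UMIs of the 9 in AHRfl/fl, had 116 and 43.3 CPM (-1.41). Uqcr11, a small subunit, had 841 and 105 UMIs and the lowest ratio, -2.79.

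Complex IV, cytochrome c oxidase, differed most. The sum was 1174 CPM in AHRfl/fl and 411 in AHRmKO, 2.86-fold less, and 13 of the 15 genes compared were 2-fold or more lower (median -1.53). Cox4i1, the ubiquitous form of subunit 4, had 1864 UMIs (167 CPM) against 426 (42.4 CPM), a log2 ratio of -1.97 (-2.13 to -1.83). Cox7c, the subunit with most UMIs, had 189 and 58.6 CPM (-1.68), and Ndufa4 had 91.3 and 17.9 CPM and the lowest ratio of the complex, -2.32. Cox7a2l, which helps complexes III and IV join into supercomplexes, was one of the 2 exceptions, at 53.8 and 52.3 CPM and a ratio of -0.04 (-0.21 to 0.13). Its ratio was -0.44 (-1.17 to 0.37) within the cluster of 56 and 1433 nuclei and 0.70 (-0.24 to 1.55) within that of 387 and 64. Cox7b, named after its values were seen, was the other, at 93.7 and 48.7 CPM and a ratio of -0.94. The complex IV sum was also the most reduced of the 5 in the low barcodes (9.35-fold) and in each of the other 5 classes, from 2.29-fold in adipocyte-like to 6.48-fold in endothelial-like nuclei.

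Complex V, ATP synthase, summed to 1738 and 861 CPM, and 11 of 17 genes were lower (median -1.27). Atp5b, the catalytic beta subunit, had 2483 UMIs (222 CPM) in AHRfl/fl and 1070 (106 CPM) in AHRmKO, a log2 ratio of -1.06 (-1.17 to -0.96). Atp5d, of the central stalk, had 55.1 and 48.6 CPM, a ratio of -0.18 (-0.36 to -0.01). Its ratio was -0.88 (-1.53 to -0.16) within the cluster of 56 and 1433 nuclei and -0.36 (-1.46 to 0.58) within that of 387 and 64. Atp5k, the small membrane subunit whose promoter with the NRF1 motif is printed above, had 1214 and 217 UMIs and a ratio of -2.31. The c ring that turns in the membrane is made from 3 genes with the same mature product: Atp5g1 stood at -1.01, Atp5g2 at -1.71 and Atp5g3 at -1.68 in myofibre-like nuclei.

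The make-up of the respiratory chain RNA therefore differed between the libraries as well as its amount. Of all member UMIs in myofibre-like nuclei, complex IV took 20.6% (exact Clopper-Pearson interval 20.3 to 20.9) in AHRfl/fl and 14.4% (14.0 to 14.8) in AHRmKO, complex II took 6.48% and 9.70%, and complex I took 30.9% and 34.7%. Complex V took 30.5% and 30.2%. In macrophage-like nuclei complex IV took 22.5% and 14.2%, complex II 5.39% and 13.4%, complex I 29.7% and 37.4%, and complex V 31.1% and 24.8%. The low barcodes differed in the same directions, with 24.9% and 20.1% for complex IV and 2.41% and 6.27% for complex II. Complex I took 26.6% and 31.0% there, and complex V 33.8% and 31.8%.

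Isoforms of complex IV subunits differ between tissues. Cox6a2, Cox7a1 and Cox8b encode the heart and skeletal muscle forms of 3 complex IV subunits, and Cox6a1, Cox7a2 and Cox8a the forms found in most tissues. Both members of each pair were lower in AHRmKO in myofibre-like nuclei. Cox6a1 had 41.3 and 8.26 CPM (-2.25) and Cox6a2 31.1 and 8.16 CPM (-1.87). Cox7a1 had 5.73 and 1.69 CPM (-1.51), Cox7a2 79.4 and 27.3 CPM (-1.52), Cox8a 71.7 and 15.6 CPM (-2.16) and Cox8b 30.7 and 14.6 CPM (-1.05). Cox6b1, which has a testis form in Cox6b2, had 79.2 and 34.1 CPM (-1.20).

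As shares of a pair the isoforms could be compared between classes. Cox8b made up 343 of the 1143 Cox8a and Cox8b UMIs in myofibre-like nuclei of AHRfl/fl (interval 27.4% to 32.8%) and 48.4% in AHRmKO (147 of 304; 42.6 to 54.1). In satellite-like nuclei, named by markers of satellite cells or myoblasts, it was 9.36% and 9.76%, and in macrophage-like nuclei 14.5% and 9.36%. The satellite-like nuclei also held 4647 and 8781 CPM of the 12 myofibre markers, so they are no class free of fibre RNA. Cox6a2 made up 42.9% and 49.7% of its pair in myofibre-like nuclei and 30.4% and 39.9% in macrophage-like nuclei, which are not known to use it. In the low barcodes the shares were 35.7% and 66.1% for Cox6a2, 16.0% and 25.6% for Cox8b, and 6.51% and 13.2% for Cox7a1. Cox7a1 was scarce in myofibre-like nuclei, with 64 and 17 UMIs, and its shares of 6.74% and 5.84% had overlapping intervals. Of the Cox6a, Cox7a and Cox8 pairs, Cox8a and Cox8b differed most from each other in their ratios of myofibre-like nuclei to low barcodes, in both libraries. Cox4i2 (6 and 0 UMIs in myofibre-like nuclei) and Cox6b2 (6 and 1) were too scarce for their pairs to be ranked.

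**Figure D3:**
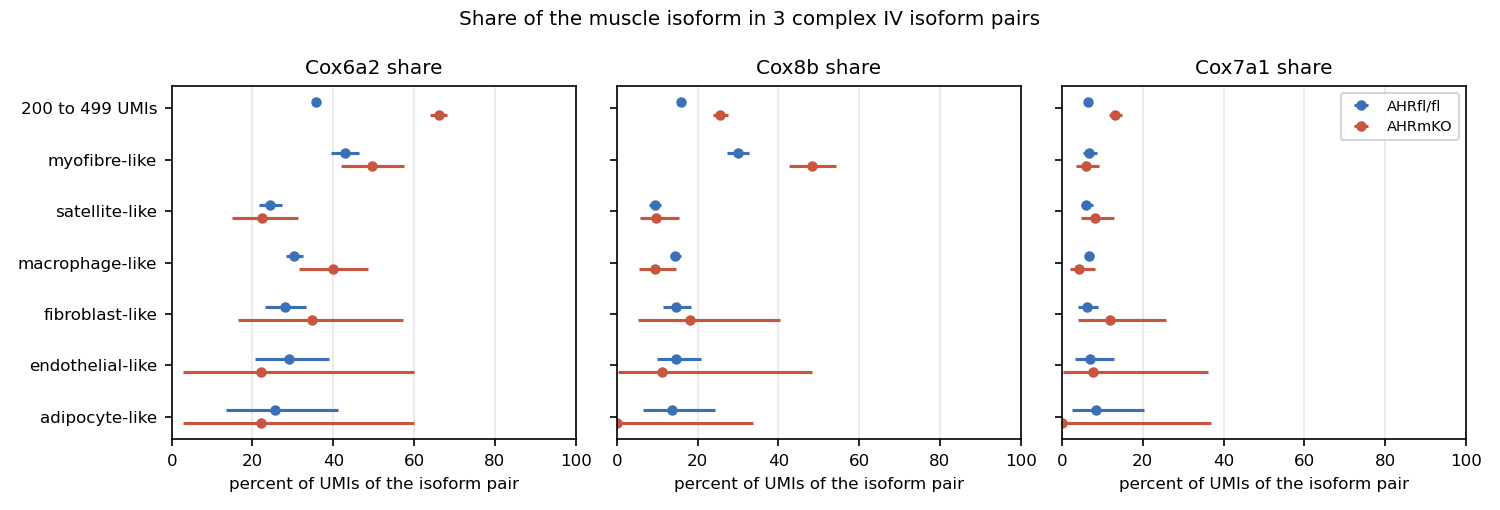
Share of the muscle isoform in 3 complex IV isoform pairs, in percent of the UMIs of the pair, by class and library, with 95% Clopper-Pearson intervals. Cox8b is highest in myofibre-like nuclei, Cox6a2 is highest in the low barcodes of AHRmKO at 66.1%, and the intervals are wide in classes with few nuclei.

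Set against the low barcodes, myofibre-like nuclei held less respiratory chain RNA in AHRfl/fl, at a log2 ratio of the sums of -2.15, and 78 of 84 members were 2-fold or more below the low barcodes, where 28.1% of all genes were. In AHRmKO the log2 ratio of the sums was -0.23, or 0.047 with each library clustered by itself. Against barcodes of at most 100 UMIs the ratios were -1.22 in AHRfl/fl and -0.79 in AHRmKO. Against the low barcodes, in AHRmKO, 20 of 85 members were 2-fold or more below, against 17.6% of all genes, which is near that background. Ndufs4 was above the low barcodes in both libraries, by a log2 ratio of 0.56 in AHRfl/fl and 0.37 in AHRmKO. Cox4i1 was below them in both, by -2.75 and -1.15, and Atp5b only in AHRfl/fl by more than 2-fold, at -2.44 against 0.13.

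The share of free RNA in nuclei was estimated from the 12 myofibre markers in macrophage-like and endothelial-like nuclei, on the assumption that low barcodes hold free RNA and that those nuclei make no such transcripts. It came to 20.7% from macrophage-like and 23.4% from endothelial-like nuclei in AHRfl/fl, and to 23.2% from either in AHRmKO. The means, 22.1% and 23.2%, were alike, while the member content of the low barcodes differed 7.54-fold. Fibroblast-like nuclei would give other shares, 15.2% and 17.2%, and adipocyte-like nuclei 13.1% and 33.1%, so 1 share does not describe every class. In myofibre-like nuclei of AHRfl/fl, macrophage and fibroblast markers summed to 777 and 386 CPM, against 5854 and 2912 CPM in its low barcodes. Both are a smaller part than 22.1%, so that share is above what these markers give for this class. In AHRmKO the sums were 274 and 74.7 CPM against 1217 and 546 CPM, near 23.2% for macrophage markers and below it for fibroblast markers. At the shares of 22.1% and 23.2% free RNA would bring 5554 CPM of members to each nuclear class of AHRfl/fl and 775 CPM to each class of AHRmKO. Myofibre-like nuclei held 138 CPM more than that in AHRfl/fl and 2077 CPM more in AHRmKO. Satellite-like nuclei held -114 and 1746 CPM beyond it, macrophage-like nuclei -144 and 984 CPM, fibroblast-like nuclei -1110 and 705 CPM and adipocyte-like nuclei -801 and 1846 CPM. Endothelial-like nuclei were the exception, with 1230 CPM beyond it in AHRfl/fl and 992 in AHRmKO. A remainder below 0 cannot be an amount of RNA, so in those classes the estimate took off more than was counted. In myofibre-like nuclei of AHRfl/fl, 50 of the 86 members stood at or under the free RNA level, and 5 did in AHRmKO. By complex, complex II stood above it in both libraries, by 235 and 228 CPM, whereas complex IV stood 207 CPM under it in AHRfl/fl and 255 CPM over it in AHRmKO.

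**Figure D4:**
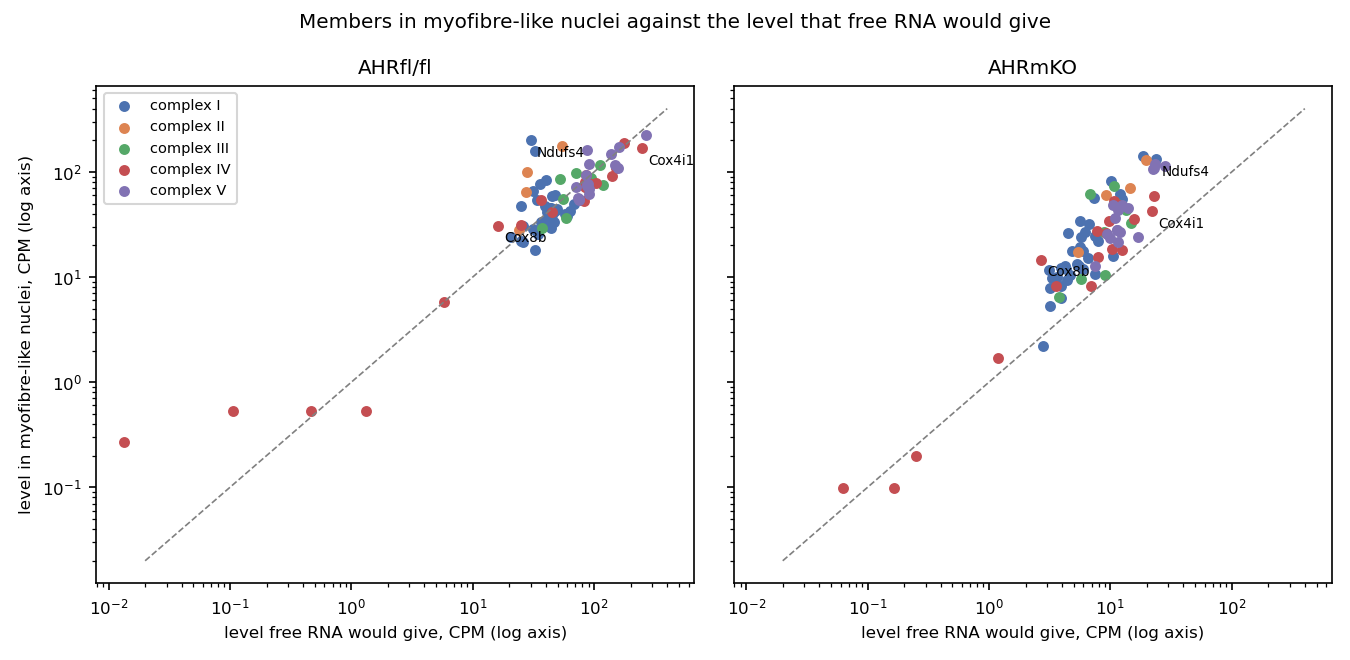
Level of each member in myofibre-like nuclei against the level that free RNA would give at the estimated share, both in CPM on log axes, with equality dashed and members at 0 on either axis left out. In AHRfl/fl the members scatter around the line, and in AHRmKO most lie above it.

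With free RNA subtracted at these shares the members' median log2 ratio turned to 3.60 in myofibre-like and 2.59 in macrophage-like nuclei, and stayed below 0, at -0.54, in endothelial-like nuclei. Then 2 members in myofibre-like and 0 in macrophage-like nuclei were 2-fold or more lower, against 17.8% and 18.3% of all genes treated alike. These medians are no fold changes, since 50 and 59 members in AHRfl/fl and 5 and 11 in AHRmKO were then at 0. The outcome also varied with the profile and the share, in alternatives chosen after the data were seen. With the share from fibroblast-like nuclei the medians were 0.61 in myofibre-like and -0.49 in macrophage-like nuclei, with 2 of 81 and 23 of 84 members lower, against 17.4% and 19.8% of all genes. With that from adipocyte-like nuclei they were -0.29 and -2.19, with 21 and 59 members lower, against 26.8% and 26.3%, so the 21 of 81 lie near that background. Barcodes of at most 100 UMIs held 13253 and 4924 CPM of members, a 2.69-fold difference. With their profile the shares came to 36.9% and 19.4% and the medians to 1.42 and 0.052, with 2 and 14 members lower, against 13.5% and 12.8% of all genes. With that profile and the share from fibroblast-like nuclei they were -0.37 and -1.52, with 18 and 53 members lower, against 14.7% and 15.7% of all genes. With the share from adipocyte-like nuclei they were -1.37 and -3.83, with 47 and 67 members lower, against 21.7% and 23.5%. In endothelial-like nuclei the median stayed below 0 in all 6 combinations of profile and share, from -4.24 to -0.54. It ran from -1.47 to 3.38 in satellite-like, from -4.00 to 2.24 in fibroblast-like and from -0.50 to 3.88 in adipocyte-like nuclei. The lower level of respiratory chain RNA in AHRmKO nuclei is therefore a description of the UMIs counted. In every class but the endothelial-like one its direction after subtraction depended on the profile and share used. At the first shares, Ndufs1 had 125 CPM beyond the free RNA level in AHRfl/fl and 123 CPM in AHRmKO in myofibre-like nuclei.

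By median span, the members that differed little were longer genes than those that differed most. Of 78 members compared in all 6 classes, 35 were 2-fold or more lower in every class and 9 in none. Of the 10046 genes compared in all 6 classes, 5.06% were lower in every class and 68.7% in none. Among the 9 were Ndufs4, Sdha, Sdhb and Cox7a2l. Their gene spans, from GENCODE M21 on GRCm38, ran from 10.2 to 100.5 kb against 0.953 to 17.4 kb and a median of 7.18 kb for the 35. Ndufs4 (chr13:114287795-114388258, minus strand) spans 100.5 kb, of which 97.3% is intron. Cox6a2 (chr7:128205435-128206387, minus strand) spans 0.953 kb, lies wholly inside Itgad on the opposite strand, and had more UMIs than Itgad in both libraries.

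In myofibre-like nuclei 23 of 27 members under 5 kb were 2-fold or more lower in AHRmKO, 21 of 30 from 5 to under 10 kb, 5 of 14 from 10 to under 20 kb, and 0 of 10 at 20 kb or more. The shares of all genes fell in the same order, from 38.3% under 5 kb through 27.7% and 17.8% to 11.2% at 20 kb or more. Across the 81 members, log2 span and log2 ratio had a Pearson r of 0.45 (Spearman rho 0.46), and span and the ratio of myofibre-like nuclei to low barcodes had an r of 0.63 in AHRfl/fl and 0.54 in AHRmKO. Span and the library ratio within the low barcodes had an r of 0.48 over 85 members (rho 0.38), so that trend was not particular to nuclei. There the median ratio of all genes ran from -0.80 under 5 kb to 0.28 at 20 kb or more. These points share the libraries and genes are not independent replicates. Long, intron-rich genes are known to leave more unspliced RNA in the nucleus. Whether intronic reads were counted is not given in the sources used here.

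**Figure D5:**
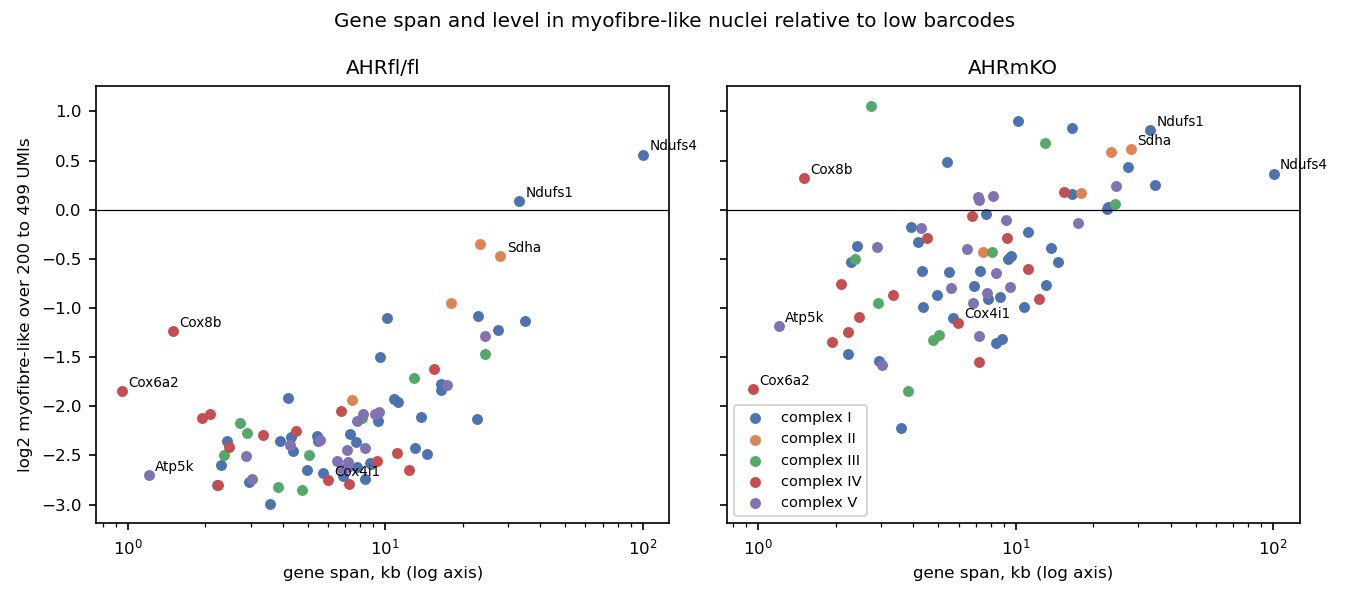
Gene span in kb on a log axis against the log2 ratio of myofibre-like nuclei over low barcodes, per member, for AHRfl/fl (left) and AHRmKO (right), coloured by complex. The median of the members of 20 kb or more is -1.11 in AHRfl/fl and 0.31 in AHRmKO, and that of members under 5 kb is -2.41 and -0.87.

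Other gene lists place these values. The 13 mitochondrial-encoded subunits, partners of the members in the same complexes, went the opposite way: they summed to 9800 CPM in AHRfl/fl and 34602 in AHRmKO in myofibre-like nuclei, and 13 of 13 were 2-fold or more higher. Within the cluster that gave 56 and 1433 nuclei the direction was the other way, at 45889 and 36183 CPM, with 11 of 13 lower in AHRmKO by any amount, while the members there took 5782 and 2706 CPM. Within that of 387 and 64 nuclei the mitochondrial-encoded subunits took 8407 and 25863 CPM, and 13 of 13 were 2-fold or more higher. Of the 9 clusters with at least 50 nuclei from each library, only the cluster of 56 and 1433 had a lower sum of these subunits in AHRmKO. Cytosolic ribosomal protein genes, whose mRNAs are abundant outside the nucleus, went the same way as the members, with 13226 and 3373 CPM and 77 of 84 lower. Assembly factors of the respiratory chain had 14 of 47 lower and 2 higher (median -0.66), and citrate cycle genes, which feed the chain, had 1 of 16 lower (median -0.18). Of 12 regulators of mitochondrial genes, such as Ppargc1a, Nrf1 and Tfam, 2 were lower and 1 higher, with a median of 0.10, near the 18.3% and 7.35% of all genes. In the low barcodes, 26 of 47 assembly factors and 10 of 16 citrate cycle genes were lower, against 22.6% of all genes.

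Values of other kinds moved with the comparison. Mitochondrial-encoded genes took 0.98% of UMIs in myofibre-like nuclei of AHRfl/fl and 3.46% in AHRmKO. At a mitochondrial share under 1% the members took 5527 and 2883 CPM, from 1% to under 5% 6218 and 2954 CPM, and from 5% 6673 and 2396 CPM. By depth, they took 7282 and 3191 CPM in nuclei of 2000 to 3000 UMIs and 5302 and 2701 CPM in those of at least 5000. Free RNA was not held fixed in these bands, and its part was not tested. Macrophage markers (10 genes, none at 0) summed to 777 and 274 CPM in myofibre-like nuclei and to 5854 and 1217 CPM in the low barcodes. Markers of immature myonuclei (8 genes, none at 0) summed to 7818 and 9244 CPM in the myofibre-like class.

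The size of the difference varied with the clusters taken from the class. Myofibre-like clusters with under 3 raised markers of immature myonuclei (388 and 596 nuclei) were one cluster of 387 and 64 nuclei and another of 1 and 532, so this split mostly sets one cluster against another. In it the members took 5004 and 3422 CPM, and 37 of 81 were 2-fold or more lower against 21.5% of all genes, with a median of -0.94. Ndufs1 was higher in AHRmKO there, at 109 and 158 CPM (log2 ratio 0.53, 0.27 to 0.79), and Ndufs4 stood at 169 and 188 CPM, a ratio of 0.15 whose interval (-0.06 to 0.37) holds 0. Complex II was higher in AHRmKO there, at 231 and 342 CPM, and Sdhb was 2-fold higher at a log2 ratio of 1.17, against 10.4% of all genes that were. The log2 ratios there were -1.08 for Cox6a1, -0.55 for Cox6a2, -0.31 for Cox7a1, -1.39 for Cox7a2, 0.68 for Cox7a2l, -1.76 for Cox8a and -0.51 for Cox8b. Erythroid markers (6 genes) summed to 203 and 1251 CPM in the split, and their part in the result was not tested. Within the cluster of 387 and 64 nuclei the members took 5010 and 1939 CPM, with a median of -1.54, and complex II took 229 and 152 CPM. Ndufs1 had 109 and 67.4 CPM there, Ndufs4 169.9 and 67.4 CPM and Sdhb 39.3 and 37.9 CPM. In the clusters with 3 or more such markers (1587 and 1435 nuclei) the members took 5832 and 2707 CPM, and 54 of 81 were lower against 19.6% of all genes. These splits were chosen after the data were seen.

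Some counts may be shared with neighbours, since use of the strand is not stated. Of the 86 members, 27 overlap another gene, and for Cox6c, Ndufa4l2, Ndufb11 and Ndufb2 the overlapping gene had more UMIs in myofibre-like nuclei of both libraries. In AHRmKO alone this held also for Atp5j, Ndufa13 and Ndufb5. Ndufa13 overlaps Yjefn3 on the same strand, with 473 UMIs against 55 in AHRfl/fl and 63 against 69 in AHRmKO. UMI counts are not divided by gene length, so statements on which gene has most UMIs, and the shares within isoform pairs, describe captured UMIs and are not levels per length.

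Over the 86 members the Pearson r of their log levels between pairs of classes ran from 0.94 to 0.99 in AHRfl/fl and from 0.86 to 0.97 in AHRmKO. Against the low barcodes of the same library it ran from 0.92 to 0.98 in AHRfl/fl and from 0.82 to 0.92 in AHRmKO. These points share a library and its free RNA, and r over genes of such unlike abundance leaves room for differences in make-up: in AHRmKO complex II took from 8.15% of member UMIs in endothelial-like to 13.4% in macrophage-like nuclei.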

How the data were processed

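Raw UMI counts of all barcodes were deposited by the authors, from Chromium 3′ HT libraries, 1 per group. The counts came from Cell Ranger 7.0.1 and build mm10 per the submitters' processing notes, while the file headers name Cell Ranger 4. The annotation, the counting of intronic reads and the use of strand are not given in the sources used here. Groups follow the titles.

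Nuclei needed 2000 UMIs. Doublets were scored with Scrublet, and the top 0.4% of scores per 1000 barcodes were removed (1453 and 325). Both libraries were clustered together without integration (scanpy 1.11.5, Python 3.11.15), leaving out the members, mitochondrial-encoded, assembly, citrate cycle and ribosomal protein genes, Gm42418, AY036118 and Malat1: 2000 variable genes, 30 components, 15 neighbours, Leiden resolution 0.8, giving 22 clusters, of which 20 took the name of the class with most markers raised 2-fold, at least 3 of them, with 10 CPM added. These naming thresholds were set after the data were seen. The 2 unnamed clusters held 417 and 1188 nuclei and were left out of the classes.

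UMIs of each class were added up within a library and divided by the class total. Genes with at least 10 UMIs were compared, and 2-fold or more counted as different. Intervals are exact (Poisson, Clopper-Pearson, conditional binomial, 95%; numpy 2.4.6, scipy 1.17.1). Only the conditional binomial interval of the log2 ratio was tested on simulated data. These were Poisson counts, the model it assumes, so that test does not cover spread between nuclei. No test between groups was possible. The members and lists were chosen with earlier results of these data known. Named genes were, per complex, the member with the highest level in AHRfl/fl and those with the highest and lowest ratio in myofibre-like nuclei among members with 30 UMIs, the isoform pairs, the Sdh genes, Cyc1 and Ahr. The alternatives concerned UMI minimum, mitochondrial share, doublets, clustering, thinning, totals, the CPM added, the UMI minimum per gene, the low barcode range and free RNA. Some results are not reported here.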

Additional observations from a re-analysis of the deposited data

Results flagged for a closer look

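Barcodes of 500 to under 1000 UMIs entered no comparison. In them, mitochondrial-encoded genes took 24.1% of UMIs in the AHRmKO library, above the 7.76% in the AHRfl/fl library taken as control, and that difference drew attention to them. The respiratory chain members were not described in these barcodes.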

How the results depend on the processing

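With the low barcode profile subtracted, the members' median log2 ratio turned from -1.33 to 3.60 in myofibre-like and from -1.91 to 2.59 in macrophage-like nuclei. The members 2-fold lower fell from 49 to 2 and from 67 to 0, against 17.8% and 18.3% of all genes after the same subtraction. By construction many members then stood at 0 in AHRfl/fl, so these medians and the ratios below are no fold changes. In myofibre-like nuclei 15 of the 18 named members that were 2-fold different turned: Cox4i1 5.74, Cox6a1 3.70, Cox6b1 5.99, Cox7a1 1.21, Cox7a2 5.67, Cox8a 4.39, Ndufa4 3.91, Atp5g1 5.27, Atp5g2 1.19, Atp5g3 6.04, Uqcrh 2.72, Uqcr11 2.24, Cox7c 1.56, Atp5b 7.76 and Atp5k 4.75. Ndufa1 was at 0 in both libraries and has no value. The muscle isoforms Cox6a2 and Cox8b did not turn. Cox6a2 kept 6.11 CPM in AHRfl/fl and 1.18 CPM in AHRmKO beyond the free RNA level, and Cox8b 14.6 and 11.9 CPM. For the alternatives chosen after the data were seen, the share of all genes lower under the same setting follows each count. The medians were 1.42 (myofibre-like, 2 members lower, 13.5%) and 0.052 (macrophage-like, 14 lower, 12.8%) with the profile of barcodes of at most 100 UMIs. They were 0.61 (2 lower, 17.4%) and -0.49 (23 lower, 19.8%) at the share of fibroblast-like nuclei. At that of adipocyte-like nuclei they were -0.29 (21 lower, 26.8%, so the 21 lie near that background) and -2.19. With the profile of barcodes of at most 100 UMIs and these 2 shares they were -0.37 (18 lower, 14.7%) and -1.52, and -1.37 and -3.83.

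Under every alternative without subtraction for these classes, both medians stayed below 0. In myofibre-like nuclei the median was -1.29 from 1000 UMIs, -1.28 at a mitochondrial share of at most 5%, -1.28 with doublets kept, -1.18 at resolution 0.4, -1.03 with each library clustered by itself, -1.31 as a mean of barcode CPM, -1.11 with 5 CPM added and -1.26 from 1 UMI per gene. Chosen after the data were seen, it was -0.94 in clusters with under 3 immature markers, -1.37 with 3 or more and -1.23 with immature myonucleus-like nuclei added. In macrophage-like nuclei it was -1.93 from 1000 and -1.57 from 4000 UMIs, -1.86 with doublets, -1.96 at resolution 0.4, -1.97 clustered separately, -2.02 thinned to 2000 UMIs, -1.99 as a mean, -1.88 without Gm42418, AY036118, Malat1 and mitochondrial genes in the total, -1.54 with 5 CPM and -1.94 from 50 UMIs per gene.

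The sum in myofibre-like nuclei over low barcodes was, in AHRfl/fl (-2.15), -2.10 against barcodes of 100 to under 200 UMIs, -1.22 against those of at most 100, -2.09 with the other total and -2.19 from 4000 UMIs. In AHRmKO (-0.23) it was -0.17, -0.79 and -0.61 in that order up to the other total, 0.047 clustered separately, -0.19 at a mitochondrial share of at most 5% and -0.29 from 4000 UMIs. In the low barcodes the library difference (-2.92) was -2.96 and -1.44 with the lower ranges, -2.50 with the other total, which moved the median of all genes by 0.33, and -2.72 with 5 CPM. The causes were not tested.

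Complex I took 30.4% and 33.9% of member UMIs in thinned myofibre-like nuclei. No paired analysis was possible because each group has 1 library. Depth limits Cox4i2, Cox6b2, Cox7b2, Cox8c and Ndufa4l2.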
